A study of Mus musculus with 12 samples.

Results

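Bmp10, with the bone morphogenetic protein (BMP) ligands Bmp2, Bmp4, Bmp5, Bmp6 and Bmp7, the receptors Bmpr1a and Bmpr2 and the related ligand Gdf15, was followed across 12 left ventricles of adult mice. These 9 genes, of 34844 gene names on the array, were taken by name. Bmp10 was selected on its measured level, which lay at background in control hearts, so its difference from control is given as a description without a test. The 9 genes had 10 probes, and 8 genes passed the filter on low signal. Total RNA of the left ventricular wall, with the apex and without the septum, was hybridized to one-colour Agilent arrays at 6 months of age, each array holding 1 mouse and each group 4 arrays. The study deleted the cardiac transcription factor gene Nkx2-5 in trabecular myocardium at 2 developmental stages. For the Nkx2-5Δtrab group (TrbE10), tamoxifen was injected into pregnant females at E10.5 and again at E11.5, while trabeculae form. For the Nkx2-5Δcomp group (TrbE14), the injections fell at E13.5 and again at E14.5, while trabeculae compact. Both mutant groups carried the floxed Nkx2-5-ΔNeo allele together with Cx40-creERT2, an inducible Cre driven from the locus of the gap junction gene Gja5 (Cx40). The sample labels describe the controls as not injected, whereas the study's methods describe littermates without the Cre allele. The Cre acts in cells that express Cx40 when tamoxifen is given, and their descendants keep the deletion. In the study's lineage tracing, marked muscle cells were spread over the whole left ventricle, compact zone included, after embryonic induction. After fetal induction they were confined to the inner part of the left ventricular wall. Cx40 is also expressed in atrial muscle, Purkinje fibres and arterial endothelium.

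BMP ligands are secreted dimers of the TGF-beta superfamily that are cleaved from precursors by furin-like convertases. They bind a pair of type I and type II serine-threonine kinase receptors, which phosphorylate Smad1, Smad5 and Smad9, and these join Smad4 to activate targets such as the Id genes and the inhibitory Smad6 and Smad7. Bmp10 is made by trabecular ventricular myocytes of the embryo, where it sustains myocyte growth, and in the adult heart it is largely restricted to the right atrium. It signals in endothelium through the type I receptor Acvrl1 and the co-receptor endoglin.

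Bmp10 was read by 1 probe, at chr6:87384427-87384486 on the plus strand of mm9, the build of the array design. The probe is shown because every Bmp10 value rests on it. Read from its first base, its 20 codons held no stop before the last codon, which is a stop and is in capitals.
Bmp10 probe: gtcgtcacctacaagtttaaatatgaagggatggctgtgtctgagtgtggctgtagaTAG
The 250 bases before the annotated starts of Bmp10 and Smad6 are shown because Bmp10 was the member with the large difference and Smad6 was the BMP pathway gene whose levels were most like it. Both are RefSeq sequences in GRCm38.p6, Bmp10 at chr6:87428744-87428993 on the plus strand and Smad6 at chr9:64022060-64022309 on the minus strand. They were searched on both strands for AAGTG (the core letters bound by Nkx2-5), GATAA (bound by GATA factors) and GGCGCC (bound by BMP-activated Smads), and matches are in capitals.
Bmp10 upstream: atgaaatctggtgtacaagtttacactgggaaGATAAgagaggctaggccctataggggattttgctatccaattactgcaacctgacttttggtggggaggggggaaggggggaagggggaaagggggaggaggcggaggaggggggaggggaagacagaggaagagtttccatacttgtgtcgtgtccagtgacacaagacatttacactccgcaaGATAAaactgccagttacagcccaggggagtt
Smad6 upstream: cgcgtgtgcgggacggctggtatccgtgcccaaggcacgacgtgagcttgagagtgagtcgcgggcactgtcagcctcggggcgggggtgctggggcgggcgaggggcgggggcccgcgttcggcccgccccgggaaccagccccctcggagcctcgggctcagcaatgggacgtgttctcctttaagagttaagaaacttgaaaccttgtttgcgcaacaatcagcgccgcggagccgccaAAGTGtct
The Bmp10 window held GATAA at bases 218 to 214 and 32 to 28 before the start and neither of the other motifs. The Smad6 window held AAGTG at bases 8 to 4 before the start. AAGTG was present in 40.7%, GATAA in 22.6% and GGCGCC in 9.59% of 32851 windows of this length. Of the 9 genes, 7 had a window, and AAGTG was found in 0 of them.

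The deleted gene itself was read first. Nkx2-5 lay at a log2 normalized intensity of 11.95, 12.23, 11.93 and 11.89 in the 4 control hearts, at 11.27, 11.67, 11.21 and 11.22 in TrbE10 hearts and at 11.12, 11.57, 11.32 and 11.63 in TrbE14 hearts. Every mutant array was below every control array. The log2 change was -0.66 ± 0.14 (SE, n = 4) in TrbE10 hearts (limma adjusted p = 0.0459) and -0.59 ± 0.14 in TrbE14 hearts (limma adjusted p = 0.106). Whether the probe lies in the floxed segment is not given in the sources used here, and the call in TrbE10 hearts was lost in 10 of 12 cases when 1 array was left out (all but TrbE14 replicate 1 and TrbE10 replicate 2), with changes between -0.76 and -0.58. Gja5, whose locus carries the Cre, gave log2 changes of -0.64 ± 0.36 (adjusted p = 0.410) and -0.47 ± 0.36 (adjusted p = 0.572), neither past the threshold of 0.05.

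Bmp10 was not well above background in any of the 4 control hearts and was so in all 8 mutant hearts. Its log2 normalized intensity was 2.36, 2.36, 2.35 and 2.37 in control hearts. It was 6.55, 5.33, 7.59 and 7.05 in TrbE10 hearts and 6.89, 6.60, 7.03 and 6.73 in TrbE14 hearts. The lowest mutant array, TrbE10 replicate 2, lay above the faintest signal well above background on any TrbE10 array, which was 4.49 to 4.67, and no mutant array overlapped the controls. The control value is only a bound, and each control array was counted at its lowest signal well above background, or at its own Bmp10 signal where that was higher. On this basis the TrbE10 mean was at least 4.56-fold higher than control and the TrbE14 mean at least 5.17-fold higher. With normexp background correction the bounds were 2.01-fold and 1.99-fold. In the authors' normalized values the controls' own signal was the higher, and the fold between the group means was 3.04 and 3.36. RNA of the whole wall was measured, so more cells that express a gene and more of its RNA per cell cannot be told apart.

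**Figure D1:**
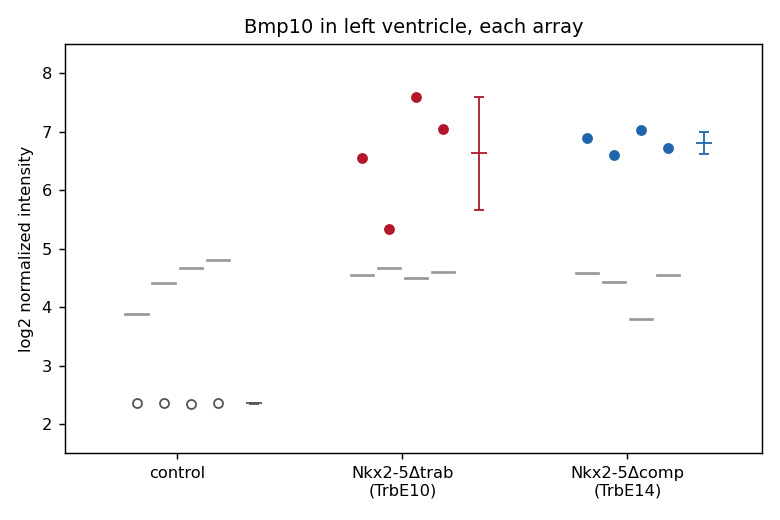
Log2 normalized intensity of the Bmp10 probe in each of 12 left ventricles, by group, with the group mean and SD to the right of the points. Filled points were well above background and open points were not, and the grey bars mark the lowest signal well above background on the same array. The 4 control hearts lie between 2.35 and 2.37, under their bars, and the 8 mutant hearts between 5.33 and 7.59, above theirs.

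The mutant groups did not differ in Bmp10 beyond the spread between hearts. The mean was 6.63 ± 0.96 (SD, n = 4) in TrbE10 and 6.81 ± 0.19 (SD, n = 4) in TrbE14 hearts, a difference of -0.18 with a 95% interval from -0.98 to 0.62 (limma adjusted p = 0.975). The order of the levels was therefore control, then both mutants, which could not be separated. The spread was wider among TrbE10 hearts, from 5.33 to 7.59, than among TrbE14 hearts, from 6.60 to 7.03, and the difference in spread was not tested. TrbE10 replicate 2, with the lowest Bmp10 of the mutants, also had the highest Nkx2-5 of its group, 11.67 against 11.21 to 11.27 in the other TrbE10 hearts. The same heart was lowest of its group for Bmp4, Bmp6, Bmpr2, Gdf15 and Smad6 as well. TrbE14 hearts did not show this pairing, with Nkx2-5 highest on replicate 4 (11.63) and Bmp10 lowest on replicate 2 (6.60).

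Of the other ligands, Bmp2, Bmp4, Bmp6 and Bmp7 were measured in every group and none was called in any comparison. Bmp4, which patterns the early heart and outflow tract, had log2 values of 9.58, 11.06, 10.43 and 10.54 in control hearts, 10.59, 10.01, 11.01 and 10.74 in TrbE10 hearts and 10.72, 10.48, 10.45 and 10.45 in TrbE14 hearts. The groups overlapped throughout, with changes of 0.19 ± 0.28 (SE, adjusted p = 0.790) and 0.12 ± 0.28 (adjusted p = 0.863). Without control replicate 1, the lowest Bmp4 array, both changes turned negative, to -0.088 and -0.15. The other Bmp4 probe, at chr14:47003198-47003257 in mm9, was at background on every array.

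Bmp6, known for its control of hepcidin in the liver, lay at 8.72, 9.70, 9.54 and 9.05 in control hearts, at 9.50, 9.32, 9.79 and 9.64 in TrbE10 hearts and at 9.23, 9.33, 10.01 and 10.09 in TrbE14 hearts. The changes were 0.31 ± 0.25 (adjusted p = 0.585) and 0.41 ± 0.25 (adjusted p = 0.485), and the groups overlapped. Without control replicate 1 the Bmp6 changes were 0.13 and 0.24. Bmp2, which patterns the atrioventricular canal, gave 6.47, 6.74, 6.44 and 6.35 in control, 6.35, 6.24, 6.00 and 6.25 in TrbE10 and 6.48, 6.62, 5.71 and 6.33 in TrbE14 hearts. It was the member other than Bmp10 whose TrbE10 and control arrays did not overlap, with the nearest arrays at 6.352 and 6.354, and its changes of -0.29 ± 0.18 (adjusted p = 0.450) and -0.22 ± 0.18 (adjusted p = 0.598) did not pass the test. Without TrbE14 replicate 3 the Bmp2 change in TrbE14 hearts was -0.025. Bmp7, an early myocardial ligand, gave 6.47, 6.28, 5.45 and 5.29 in control, 5.18, 6.55, 4.87 and 6.05 in TrbE10 and 5.38, 5.74, 5.61 and 6.26 in TrbE14 hearts. Its changes of -0.21 ± 0.39 (adjusted p = 0.833) and -0.12 ± 0.39 (adjusted p = 0.906) turned positive when certain single arrays were left out, to 0.058 without TrbE10 replicate 3 and to 0.079 without control replicate 1.

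Bmp5 was the member that did not pass the filter. It was well above background on 2 arrays, control replicate 1 (5.15) and TrbE14 replicate 3 (4.68). On the other 10 arrays it lay between 3.79 and 4.78, and no fold change is given.

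Gdf15, a distant member of the superfamily that is secreted under cellular stress and signals outside the BMP receptors, had a wider spread in TrbE10 and control hearts (SD 1.27 and 0.80) than in TrbE14 hearts (SD 0.39). It lay at 7.53, 7.81, 5.99 and 6.97 in control hearts, at 7.44, 7.42, 9.83 and 9.40 in TrbE10 hearts and at 8.05, 7.20, 7.94 and 7.92 in TrbE14 hearts. TrbE10 replicates 3 and 4 were above every other array, and TrbE10 replicates 1 and 2 were within the range of the controls. The change of 1.45 ± 0.57 in TrbE10 hearts (unadjusted p = 0.0277 by limma) did not pass after adjustment (adjusted p = 0.245), and the change in TrbE14 hearts was 0.71 ± 0.57 (adjusted p = 0.593). Leaving out single arrays moved the TrbE10 change between 1.01 (without TrbE10 replicate 3) and 1.81 (without TrbE10 replicate 2), and the TrbE14 change was 0.34 without control replicate 3. Of 7 genes of the stress response in which Gdf15 takes part (Atf3, Atf4, Ddit3, Trib3, Chac1, Asns and Fgf21), 6 were measured and 0 were called in either mutant, with median changes of -0.20 and -0.07. Asns, which encodes asparagine synthetase, was lower in every mutant heart, with changes of -0.48 (adjusted p = 0.227) and -0.72 (adjusted p = 0.118).

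**Figure D2:**
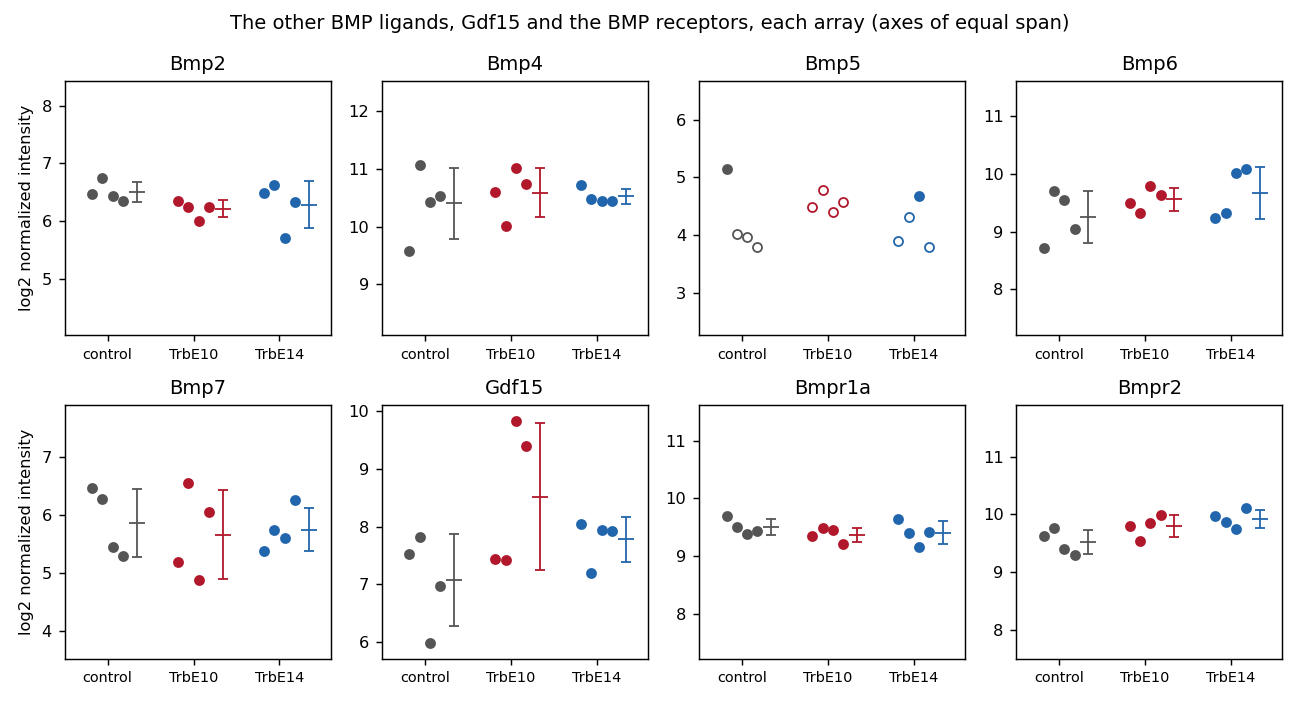
Log2 normalized intensity of the other BMP ligands, Gdf15 and the receptors in each of 12 hearts, with group means and SD, on axes of equal span. Open points were not well above background, as for Bmp5 on 10 arrays, for which no mean is drawn. The groups overlap in every panel except TrbE10 against control for Bmp2, and 2 TrbE10 hearts stand above the rest for Gdf15.

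The receptors were measured on every array. Bmpr1a, a type I receptor of cardiac muscle, lay at 9.69, 9.51, 9.38 and 9.44 in control, 9.34, 9.48, 9.45 and 9.20 in TrbE10 and 9.65, 9.40, 9.16 and 9.42 in TrbE14 hearts. Its changes of -0.14 (95% interval -0.39 to 0.12) and -0.10 (-0.35 to 0.15) had the narrowest intervals of the 7 genes other than Bmp10 that were measured, and did not pass the test. They were -0.074 and -0.037 without control replicate 1, and the TrbE14 change was -0.015 without TrbE14 replicate 3. Bmpr2, the type II receptor that pairs with it and with Acvrl1, lay at 9.62, 9.76, 9.39 and 9.29 in control, 9.80, 9.54, 9.85 and 9.99 in TrbE10 and 9.98, 9.86, 9.74 and 10.10 in TrbE14 hearts. In TrbE14 hearts 3 of 4 arrays were above every control array, and the change of 0.40 ± 0.13 (unadjusted p = 0.0105) gave an adjusted p of 0.236. The change in TrbE10 hearts was 0.28 ± 0.13 (adjusted p = 0.320).

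Counted together, 0 of the 7 measured genes other than Bmp10 were called in TrbE10 hearts, where 2.15% of 18021 genes were called and 1.36% were called higher. None was called in TrbE14 hearts either (0 of 7), where 0.760% of genes were called and 0.583% were called higher. At an unadjusted limma p under 0.05 there was 1 gene in each comparison, Gdf15 in TrbE10 and Bmpr2 in TrbE14 hearts, and SAM called 0 as well. Between the mutants 0 of the 8 measured genes, Bmp10 included, were called, where 0% of all genes were, and 0 had an unadjusted p under 0.05. The TrbE10 and control arrays did not overlap for 1 of the 7 genes (Bmp2) against 10.6% of all genes, and the TrbE14 and control arrays for 0 of 7 against 10.1%. The median change of the 7 genes was 0.19 in TrbE10 and 0.12 in TrbE14 hearts, and over all genes it was -0.02 and -0.03. Both comparisons use the same 4 control arrays.

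**Figure D3:**
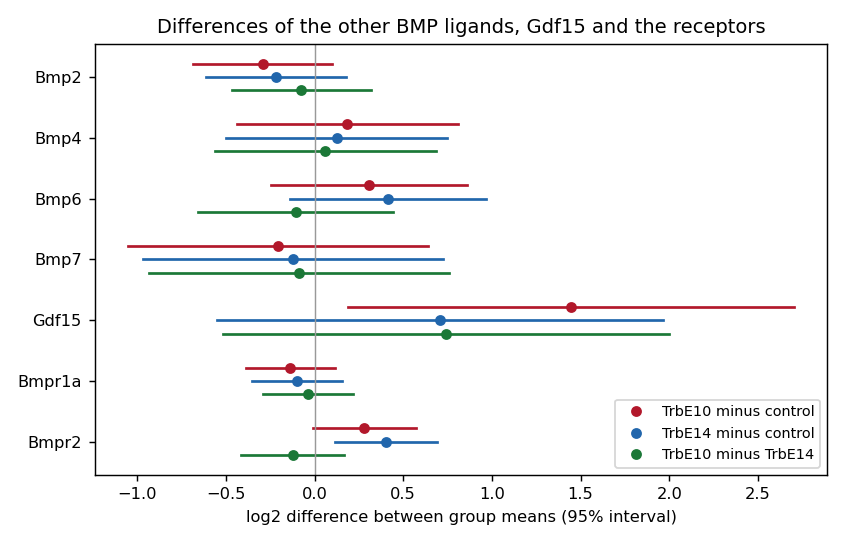
Log2 differences between group means with 95% intervals for the 7 measured genes other than Bmp10, for each mutant against control and for TrbE10 against TrbE14. The intervals include 0 except for Gdf15 in TrbE10 hearts (0.19 to 2.70) and Bmpr2 in TrbE14 hearts (0.11 to 0.69), and neither passed after adjustment.

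The rest of the pathway was taken from 5 lists of 55 genes, of which 41 were measured. In TrbE10 hearts 4 of the 41 were called, all higher (Smad6, Id2, Pcsk5 and Eng), and in TrbE14 hearts 2 were, both higher (Smad6 and Pcsk5), where 2.15% and 0.760% of all genes were called. The TrbE10 count was 1 without TrbE10 replicate 3 and 8 without TrbE10 replicate 2. The 8 include Hamp, which passed the filter on low signal through mutant groups alone. The median change of the 41 genes was 0.05 and 0.19, and none was called lower.

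Smad6, the inhibitory Smad that BMP signalling induces and that holds back the receptors, rose in both mutants. Its probe at chr9:63800980-63801039 in mm9 gave 7.62, 8.16, 7.47 and 7.65 in control, 9.68, 9.45, 10.38 and 10.12 in TrbE10 and 9.93, 9.68, 9.73 and 9.96 in TrbE14 hearts. Every mutant array was at least 1 log2 unit above every control array. The change was 2.19 ± 0.20, a 4.55-fold rise, in TrbE10 hearts (limma adjusted p = 4.30e-04) and 2.10 ± 0.20, a 4.29-fold rise, in TrbE14 hearts (adjusted p = 8.15e-04). Of the other 7 Smads and Smad regulators 0 were called. Smad7, the other inhibitory Smad, gave 1.37 ± 0.41 (adjusted p = 0.127) and 1.17 ± 0.41 (adjusted p = 0.260), and Smad9 by 1.09 ± 0.31 (adjusted p = 0.113) and 0.65 ± 0.31 (adjusted p = 0.390). The signal transducers Smad1, Smad5 and Smad4 lay between -0.21 and 0.18 in both mutants.

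Among the target genes, 9 of 10 were measured and Id2, an inhibitor of basic helix-loop-helix factors, was called in TrbE10 hearts. Id2 lay at 8.54, 8.57, 8.40 and 8.45 in control hearts, at 10.03, 9.54, 9.84 and 9.31 in TrbE10 and at 9.83, 9.71, 8.74 and 8.90 in TrbE14 hearts. All mutant arrays were above all control arrays, with changes of 1.19 ± 0.24 (adjusted p = 0.0358) and 0.81 ± 0.24 (adjusted p = 0.202), and the TrbE10 call was lost without any 1 of the control arrays or TrbE10 replicate 1 or 3. The other Id genes did not pass: Id3 gave 0.73 ± 0.17 (adjusted p = 0.0618) and 0.72 ± 0.17 (adjusted p = 0.103), and Id1 and Id4 lay between 0.63 and 1.27. The median change of the 9 targets was 0.73 in TrbE10 and 0.81 in TrbE14 hearts, and 8 of 9 had a positive change in each. The exception was Tmem100, an endothelial target of Acvrl1 signalling, at -0.74 (adjusted p = 0.342) and -0.53 (adjusted p = 0.529). Hamp, which encodes hepcidin, ranged widely, from 3.96 to 6.93 in control, 6.62 to 8.57 in TrbE10 and 5.53 to 7.21 in TrbE14 hearts, with changes of 2.61 ± 0.63 (adjusted p = 0.0637) and 1.48 ± 0.63 (adjusted p = 0.338). The near-identical copy Hamp2 could share its signal. Hamp was well above background on 2 of 4 control arrays and on 4 of 4 in each mutant group. Id4 was so on 1 of 4 control, 2 of 4 TrbE10 and 3 of 4 TrbE14 arrays. Both are among the 8 targets with a positive change and passed the filter through mutant groups alone, so their changes are a description.

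Among ligand processing genes and other ligands, 6 of 12 were measured. Pcsk5, a proprotein convertase that cleaves precursors of the TGF-beta superfamily, lay at 6.00, 6.10, 6.09 and 6.07 in control, 6.48, 6.47, 6.85 and 6.81 in TrbE10 and 6.89, 7.04, 6.96 and 6.90 in TrbE14 hearts. No mutant array overlapped the controls, and the changes were 0.59 ± 0.10 (adjusted p = 0.0155) and 0.89 ± 0.10 (adjusted p = 0.00214). The TrbE10 call was lost with normexp (log2 change 0.31, adjusted p = 0.0521), with a fit of 2 groups (adjusted p = 0.0569) and, just past the threshold, without TrbE10 replicate 3 (log2 change 0.52). The difference between the mutants, -0.30 ± 0.10, did not pass (adjusted p = 0.713). A related convertase, Pcsk6, gave -0.53 ± 0.17 (adjusted p = 0.158) and -0.44 ± 0.17 (adjusted p = 0.305), and Furin -0.23 and 0.03. Gdf2, which encodes BMP9, the other high-affinity ligand of Acvrl1, did not pass the filter.

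Of the other receptors and co-receptors, 9 of 10 were measured. Eng, which encodes endoglin, the co-receptor of Bmp10 on endothelium, lay at 11.57, 11.91, 11.62 and 11.70 in control, 12.51, 12.02, 12.80 and 12.33 in TrbE10 and 12.61, 12.39, 12.34 and 12.37 in TrbE14 hearts. All mutant arrays were above all control arrays, with changes of 0.71 ± 0.15 (adjusted p = 0.0412) and 0.72 ± 0.15 (adjusted p = 0.0642), on opposite sides of the threshold with a difference of -0.01 between the mutants (adjusted p = 0.996). The TrbE10 call was lost in 10 of 12 cases when 1 array was left out (all but control replicate 2 and TrbE10 replicate 2). The type I receptor Acvrl1 gave -0.17 ± 0.18 (adjusted p = 0.681) and -0.14 ± 0.18 (adjusted p = 0.748). Rgmb, a BMP co-receptor, was lower in all mutant arrays, with changes of -0.40 ± 0.11 (adjusted p = 0.0910) and -0.37 ± 0.11 (adjusted p = 0.179).

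Antagonists and modulators were measured for 9 of 15 genes and 0 were called in either mutant, with 3 at an unadjusted limma p under 0.05 in each. Nog and Grem1, which bind BMP ligands directly, did not pass the filter. Fstl1, a follistatin-like secreted protein, gave 0.63 ± 0.15 (adjusted p = 0.0609) and 0.58 ± 0.15 (adjusted p = 0.131), and Crim1, a membrane protein that binds BMPs, 0.56 ± 0.16 (adjusted p = 0.101) and 0.58 ± 0.16 (adjusted p = 0.147).

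**Figure D4:**
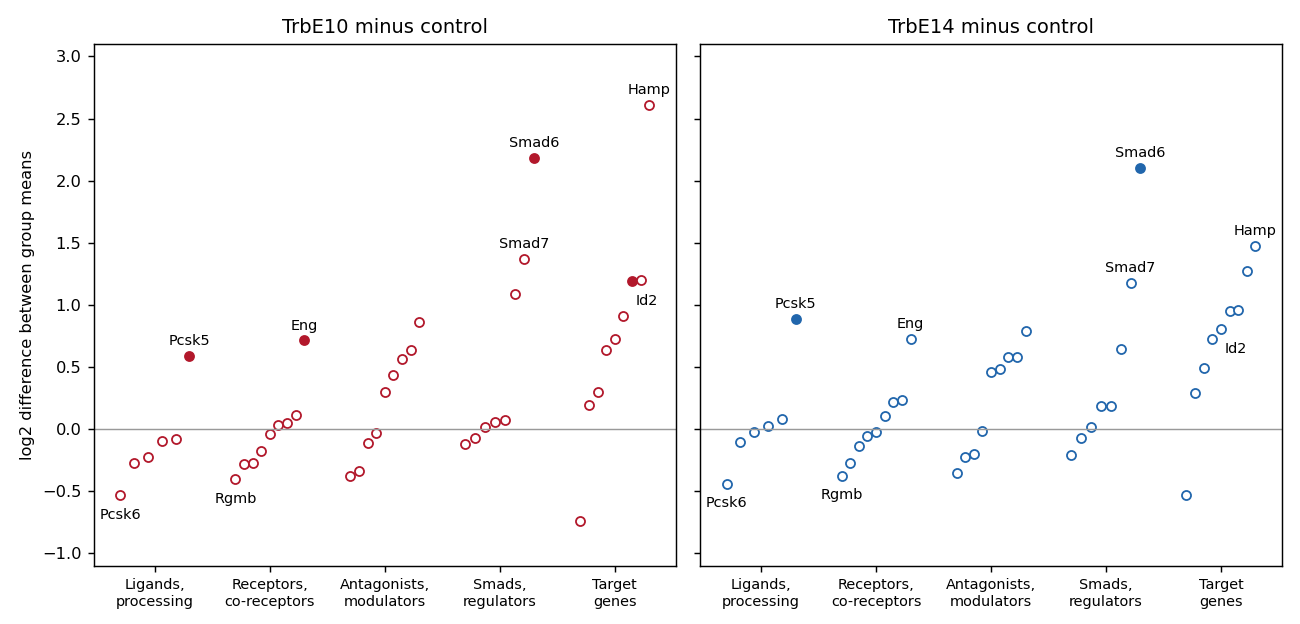
Log2 difference between group means for the 41 measured genes of the 5 BMP pathway lists, TrbE10 against control on the left and TrbE14 against control on the right. Filled points passed the test at an adjusted p under 0.05, 4 genes on the left and 2 on the right. Smad6 stands at 2.19 and 2.10, and 8 of the 9 target genes lie above 0 in each panel. Of these 8, Id4 and Hamp passed the filter on low signal through mutant groups alone.

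Of 7 genes tied to Bmp10 in the heart, Nkx2-5 and Tbx20 were called in TrbE10 hearts and Tbx20 in TrbE14 hearts. Tbx20, a cardiac T-box factor, had 3 probes that did not behave alike. Its brightest probe gave 0.50 (adjusted p = 0.121) and 0.37 (adjusted p = 0.311). Another probe passed in both mutants, with rises of 1.23 (adjusted p = 0.0237) and 1.27 (adjusted p = 0.0341), so the Tbx20 calls do not rest on the brightest probe. The Tbx20 probe at chr9:24544715-24544774 in mm9 was well above background on only 8 of 12 arrays, and the others were so on all 12. Myocd, encoding myocardin, gave -0.37 and -0.39, and Cdkn1c, encoding the cell cycle inhibitor p57 that is held down when Bmp10 acts in the embryo, gave -0.52 (adjusted p = 0.207) and -0.39 (adjusted p = 0.391).

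Markers of some other cell types moved with the groups, and their part in the Bmp10 and pathway values was not tested. Their counts stand against 2.15% of all genes called in TrbE10 and 0.760% in TrbE14 hearts. Markers of atrial muscle bear on Bmp10, which adult atria express. The atrial genes of the list differed among themselves. The atrial light chain Myl7 was highest of all 12 arrays on control replicate 3, at 12.14, with Bmp10 at 2.35, and its changes were -0.12 ± 0.84 (adjusted p = 0.964) in TrbE10 and -5.59e-04 ± 0.84 in TrbE14 hearts. Sln, which encodes the calcium pump regulator sarcolipin, lay at 8.58 to 12.48 in control, 13.54 to 14.42 in TrbE10 and 13.38 to 13.87 in TrbE14 hearts, so that every mutant array was above every control array, as for Bmp10. Of the 10 atrial genes, Sln rose by 3.80 (adjusted p = 0.0177), Dkk3 rose by 1.62 (adjusted p = 0.0459) and Stard10 fell by 0.66 (adjusted p = 0.0482) in TrbE10 hearts, and 0 were called in TrbE14 hearts, where Sln gave 3.33 (adjusted p = 0.0511) and Dkk3 1.46 (adjusted p = 0.106). These calls were lost in 4 (Sln), 10 (Dkk3) and 9 (Stard10) of 12 cases when 1 array was left out, and all 3 with no filter. The summed linear level of the 10 genes ran from 13589 to 70667 in control, 43476 to 162703 in TrbE10 and 79996 to 98123 in TrbE14 hearts.

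The endothelial list of 8 genes gave 0 limma calls in either mutant, with 1 and 3 at an unadjusted p under 0.05 and median changes of 0.14 and 0.17. Of 6 measured endocardial genes, Cytl1, Npr3 and Vwf rose in TrbE10 hearts, and Cytl1 and Vwf in TrbE14 hearts. The list did not move as a whole, with 2 of the 6 lower in TrbE10 hearts (lowest change -0.14) and 1 lower in TrbE14 hearts (-0.20). With 1 array left out the Npr3 call was lost in 5 of 12 cases and the Vwf call in 5 (TrbE10) and 9 (TrbE14) of 12, and the Cytl1 calls in 0. Cytl1 rose by 2.07 (adjusted p = 0.00250) and 1.73 (adjusted p = 0.0103), and the summed endocardial level ran from 5889 to 8610 in control, 11015 to 19185 in TrbE10 and 12297 to 16229 in TrbE14 hearts. Of 8 macrophage genes, Csf1r and Cd68 rose in TrbE10 hearts and Csf1r in TrbE14 hearts. Fcgr1 was well above background on 0 of 4 control, 4 of 4 TrbE10 and 3 of 4 TrbE14 arrays. It passed the filter through the mutant groups alone, so its higher level in TrbE10 hearts is a description and not a test result. Csf1r rose by 1.14 (adjusted p = 1.12e-04) and 0.92 (adjusted p = 6.07e-04), with a summed level of 7333 to 8832 in control, 13833 to 15717 in TrbE10 and 11920 to 13051 in TrbE14 hearts. The Csf1r calls were lost in 0 of 12 cases with 1 array left out and the Cd68 call in 5. Among 8 fibroblast genes Dcn was called in both mutants, the call being lost with scaling to the 75th percentile in both and in 9 (TrbE10) and 5 (TrbE14) of 12 cases with 1 array left out, with summed levels of 71320 to 79526 in control, 89893 to 107461 in TrbE10 and 93713 to 111689 in TrbE14 hearts. The 7 cardiomyocyte genes (Myh6, Tnnt2, Tnni3, Actc1, Mb, Myl2 and Myl3) gave 0 limma calls in either mutant (0 and 1 at an unadjusted p under 0.05), as did the 6 smooth muscle genes (0 and 3). The summed level of the cardiomyocyte genes ran from 1243812 to 1319105 in control, 1330124 to 1385558 in TrbE10 and 1227745 to 1326440 in TrbE14 hearts. Every TrbE10 array was thus above every control array in this sum, and the TrbE14 arrays overlapped the controls. The sum weighs the brightest genes most. Taken singly in TrbE10 hearts, 4 of the 7 genes were higher and 3 lower, with changes from -0.10 to 0.14 and a median of 0.003. The TrbE10 and control arrays overlapped for each of the 7.

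Among the genes whose levels were most like Bmp10 over the 12 arrays were Smad6 (Pearson r 0.98), the unnamed transcript TC1653793 (0.98), Vsig4 (0.98), a complement receptor of tissue macrophages, Cd207 (0.98), the lectin langerin, Ecm1 (0.97), an extracellular matrix protein, and Cxcl13 (0.97), a lymphocyte chemokine. The measure is Pearson's r of log2 values over 12 arrays, taken over 18020 genes, and its points are split between 4 control arrays with Bmp10 at background and 8 mutant arrays above it. Cd207 and Cxcl13 were, like Bmp10, above background on 0 of 4 control arrays, and the other genes named here were on all 4. By Spearman's rank correlation, Smad6 stood at 0.96, Ecm1 at 0.93 and TC1653793 at 0.90, and Cd207 at 0.85, Cxcl13 at 0.83 and Vsig4 at 0.76. Within TrbE10 hearts the order was the same for Bmp10 and Smad6, replicate 3 highest, then 4, 1 and 2. That order was not particular to them, since Bmp4, Bmp6 and Gdf15, which were not called, had it as well. Within TrbE14 hearts the orders of Bmp10 and Smad6 differed, with Bmp10 highest on replicate 3 and Smad6 on replicate 4.

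**Figure D5:**
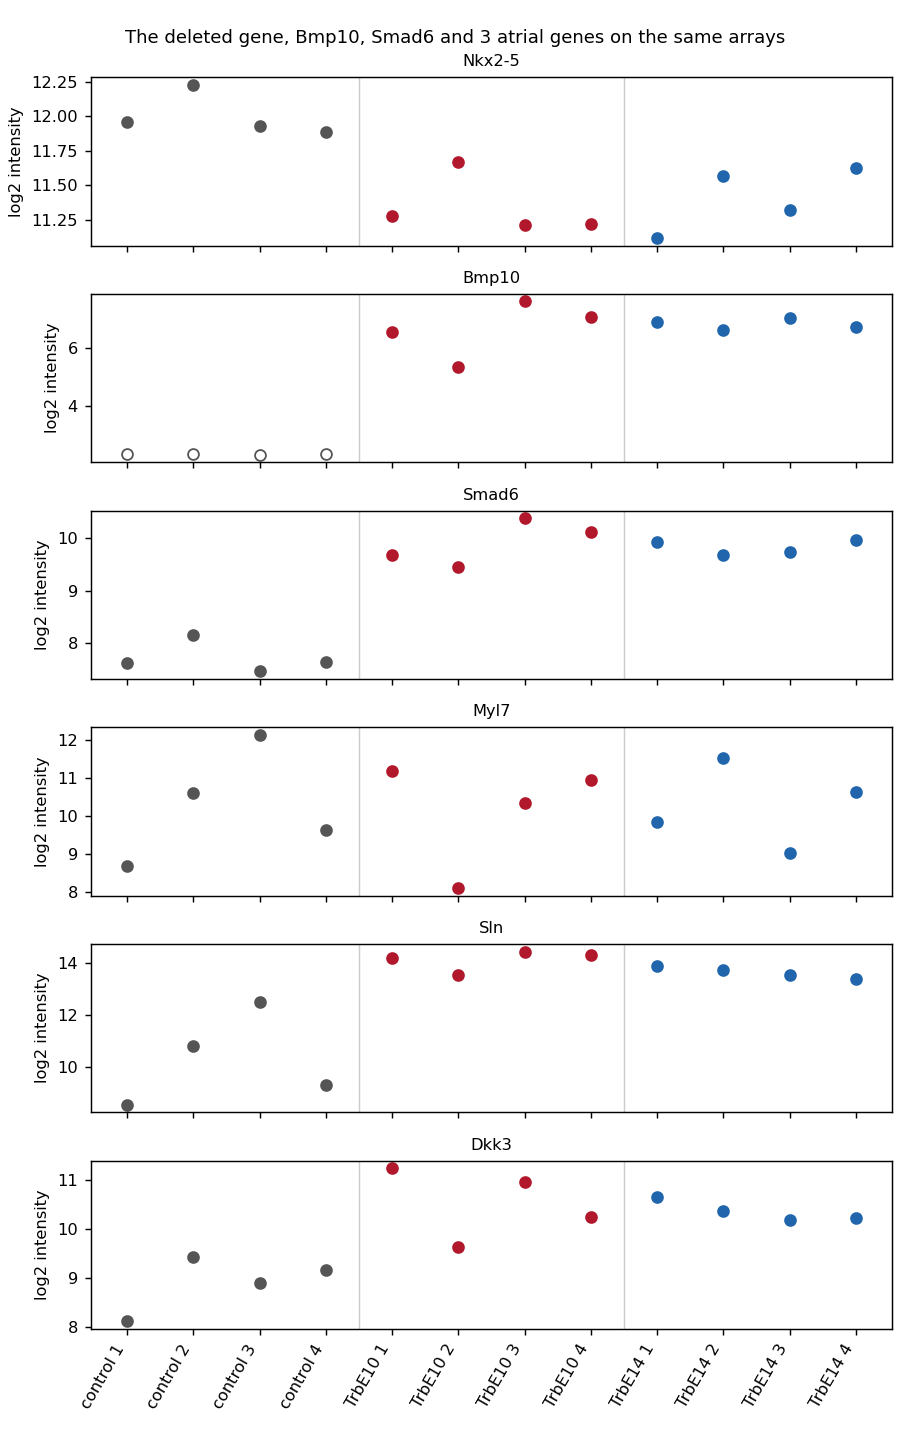
Log2 normalized intensity of Nkx2-5, Bmp10, Smad6 and the atrial genes Myl7, Sln and Dkk3 on each of 12 arrays, each on its own axis. Open points were not well above background. Nkx2-5 is lower and Bmp10 and Smad6 are higher on all 8 mutant arrays, as are Sln and Dkk3, while Myl7 overlaps between the groups and is highest on control replicate 3 (12.14).

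All 12 arrays were of similar depth, with 22888 to 26155 probes well above background, and their number limits the precision. All TrbE10 arrays were on a slide of their own, so slide and group cannot be told apart there, whereas the TrbE14 and control arrays shared a slide. Signals of both Ddx3y and Eif2s3y, which lie on the Y chromosome, were present on 1 of 4 control, 2 of 4 TrbE10 and 3 of 4 TrbE14 arrays. With this as a covariate, 0 of the 7 genes other than Bmp10 were called, and 7 pathway genes were called in TrbE10 and 5 in TrbE14 hearts, Smad6, Pcsk5, Eng and Id3 in both. The 7 include Hamp, which passed the filter through mutant groups alone, so its place in that count is a description.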

How the data were processed

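The deposited scanner files hold, for each of 62976 spots per array, a processed intensity in linear units, which the authors obtained with Agilent Feature Extraction 10.5 by subtraction of background within the array, with no scaling between arrays. The authors also deposited a table of log2 values, normalized by quantile between arrays and filtered on background. Its rows were matched to the spots by feature number, and its columns correlated with the log2 processed intensity at 0.997 to 0.998. The medians of its columns were 8.58 to 8.60, so its scale is log2 without centring on a gene.

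Here the processed intensity was log2-transformed and quantile normalized (R 4.3.3, limma 3.58.1, with the data.table package at version 1.17.8). The 3671 control spots were left out, outlier spots set aside (93 to 131 per array) and spots of a probe averaged. Probes well above background on at least 3 of 4 arrays of any group were kept (24593 probes of 18021 gene names). One mean per group was fitted with limma to all 12 arrays (9 residual and 2.19 prior degrees of freedom), with Benjamini-Hochberg adjustment over all kept probes, and every adjusted p is from limma unless SAM is named. A gene was called when any kept probe had an adjusted p under 0.05, and its brightest kept probe gave its values. The fit was tested on simulated data. The genes and lists were chosen with earlier results of these data known. Named genes are the 9 genes, Nkx2-5, Gja5, every listed gene that was called, the pathway genes with the smallest p in each list, and the 8 genes most like Bmp10, some of which are not reported here. Smad7, Hamp, Tmem100, Asns, Acvrl1, Myl7 and others were named as listed genes after their values were seen. For a group with no array well above background, a fold is a lower bound against the mean over its arrays of the lowest signal well above background, or of its own signal if brighter. Other settings tried were 75th-percentile scaling, normexp (offset 50), no filter, a stricter filter blind to the groups (9 of 12 arrays), the authors' values, fits of 2 groups, the replicate number as a block, sex as a covariate, SAM, and each array left out. Slide as a block could not be fitted, since 1 slide holds TrbE10 alone. Plots used matplotlib 3.10.9 under Python 3.11.15. The p-values measure the spread between single mice.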

Additional observations from a re-analysis of the deposited data

Results flagged for a closer look

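Of 117 sets of 4 arrays examined over the named genes, 6 held 1 array far from the other 3, by a criterion that chance meets in about 1 in 20 sets. Bmp4 was highest on TrbE14 replicate 1, at 10.7, with the next array at 10.48. Gdf15 was lowest on TrbE14 replicate 2, at 7.20, with the next at 7.92. Bmp5 was highest on control replicate 1, at 5.15, with the next at 4.01. Nkx2-5 was highest for its group on TrbE10 replicate 2, at 11.7, with the next at 11.3, and this heart also had the lowest Bmp10 of the 8 mutant hearts. It was lowest of its group for Bmp4, Bmp6, Bmpr2, Gdf15 and Smad6 too, and TrbE14 hearts did not pair high Nkx2-5 with low Bmp10 in this way. Npr3, an endocardial marker, was lowest on control replicate 3, at 6.37, with the next control at 6.87. Csf1r, a macrophage marker, was highest for its group on the same control array, at 12.4, with the next at 12.2. The cause of these values was not tested.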

How the results depend on the processing

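The count of 0 called genes among the members other than Bmp10 was the same under every alternative run, in each of the 3 comparisons, arrays left out included. Pathway genes called in TrbE10 hearts numbered 4, against 2 with no filter, 2 with fits of 2 groups and 7 with sex as a covariate, and 1 (without TrbE10 replicate 3) to 8 (without TrbE10 replicate 2) as single arrays were left out. The counts of 7 and 8 include Hamp, which passed the filter through mutant groups alone. In TrbE14 hearts the pathway genes called numbered 2, against 5 by SAM and 5 with sex as a covariate, and 2 to 3 as single arrays were left out. The log2 difference of Bmp10 was 1.56 and 1.54 with normexp and 1.60 and 1.75 with the authors' values, against 4.27 and 4.45, and single arrays moved it between 3.95 and 4.71 in TrbE10 and between 4.38 and 4.52 in TrbE14 hearts. In each mutant group the lowest of these single-array values came without its replicate 3 and the highest without its replicate 2. The size of the difference depends on the background of the control arrays, so only the bounds are read for Bmp10, and as a description. Its lower bounds were 2.01-fold and 1.99-fold with normexp, where the authors' values gave a fold between the group means of 3.36 in TrbE14 hearts, and ran from 3.65 to 6.16 and from 4.54 to 5.61 as single arrays were left out. As single arrays were left out, Bmp4 ran from -0.088 (without control replicate 1) to 0.41 in TrbE10 and from -0.15 (likewise) to 0.34 in TrbE14 hearts. Bmp7 ran from -0.50 to 0.058 (without TrbE10 replicate 3) in TrbE10 hearts and from -0.31 to 0.079 (without control replicate 1) in TrbE14 hearts, where it was also positive at 0.016 without control replicate 2 and at 0.0023 without TrbE14 replicate 1. The cause was not tested.

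Over all genes, TrbE10 calls numbered 387, with the fewest (145) without TrbE10 replicate 3 and the most (655) without TrbE10 replicate 2, and TrbE14 calls numbered 137, with the fewest (74) without control replicate 3 and the most (302) by SAM. Same-numbered arrays correlated at -0.24 to 0.48, with 3 of 12 pairs over 0.1 and 6 of 12 arrays closest to their own number, so the numbers were not taken as a pairing. With the replicate block, 0 of the members other than Bmp10 were called in any comparison, and 3 pathway genes were called in TrbE10 and 2 in TrbE14 hearts. The block ended the TrbE10 calls of Eng, Dkk3, Stard10, Npr3, Vwf and Dcn and the TrbE14 calls of Vwf and Dcn. The low signal of Bmp10 in controls limits its fold to a bound.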
